A study of Homo sapiens with 2 samples.

Results

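The genes of the eukaryotic translation initiation factors were examined in BHT101, a human cell line from an anaplastic thyroid carcinoma. Members were the protein-coding genes of the count tables whose name starts with EIF and a digit from 1 to 6, leaving out the EIF2AK kinases and genes on chromosome Y. This gave 51 of the 58735 genes listed. RNA sequencing covered 1 library of BHT101 cells with SETDB2 overexpression and 1 library of BHT101 control cells. Both sample titles carry the word overexpression, followed by SETDB2 or by Control. Each comparison below thus sets 1 library against 1 other. SETDB2 encodes a member of the family of histone H3 lysine 9 methyltransferases. Both libraries came from total RNA of cells kept under the same labelled culture conditions. Neither the control construct, the vector, the time after its introduction nor the library batch is described by the labels.

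Initiation begins when eIF2, bound to GTP, carries the initiator methionyl-tRNA to the small ribosomal subunit, where eIF1, eIF1A, eIF3 and eIF5 also bind. eIF2B reloads eIF2 with GTP, and phosphorylation of the alpha subunit of eIF2 blocks that exchange, which is the switch of the integrated stress response. eIF3 is a scaffold of many subunits on the small subunit. The eIF4 proteins bring in the mRNA: eIF4E holds the cap, eIF4A unwinds, eIF4G joins them, and the 4E-BPs, when not phosphorylated by mTOR, keep eIF4E from eIF4G.

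The count total was 34053348 in the SETDB2 library and 33572025 in the control library. SETDB2 itself had 1370 counts in the SETDB2 library and 507 in the control library, a log2 ratio of 1.43 with a 95% counting interval of 1.28 to 1.58. A count per gene cannot separate vector transcripts from endogenous ones. Epithelial keratin genes were abundant in both libraries (KRT8 had 33986 counts in the SETDB2 library and 32748 in the control library). Other epithelial markers were much lower, EPCAM with 549 and 493 counts and CDH1 with 98 and 121 in the SETDB2 and control libraries. Among 7 thyroid follicular markers 1, PAX8, passed the count filter, with 30 and 42 counts, and NKX2-1 was at 0 in both. Of 6 leukocyte markers the summed counts were 80 in the SETDB2 library and 91 in the control library, and of 4 endothelial markers 83 and 128. The fibroblast list summed to 3628 and 2367 counts, with COL1A1, COL1A2 and LUM higher in the SETDB2 library, and DCN, PDGFRB and COL3A1 at 17 counts or fewer in each library. The part of such differences in the values below was not tested.

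Sequences bear on these genes in several ways. Many mRNAs of the translation machinery start with a C followed by a run of pyrimidines, the 5' terminal oligopyrimidine (TOP) motif, through which mTOR and LARP1 control their translation. In the RefSeq table of gene starts (GRCh38.p14), 43 of the 51 members were found. EIF2S2, EIF3A, EIF3CL, EIF3E, EIF3G, EIF3H, EIF3L and EIF4EBP1 were not matched. The table was searched on the gene's own strand for a C at the start followed by at least 4 bases that are C or T, and a gene was counted where any of its listed starts had it. It was found in 10 of the 43 members (23.3%), in 6.36% of 14896 protein-coding genes in the table and in 7.58% of the 9842 of them that passed the count filter. The windows below run from 10 bases before the start to 20 bases into the transcript, with the C and its run in capitals, and are shown because the members with such a start are compared with the others further on.
EIF2A: cgagcggtttCTCTTTCCgggacaacatgg
EIF2D: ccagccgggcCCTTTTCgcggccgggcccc
EIF2S3: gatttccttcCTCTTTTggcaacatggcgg
EIF2S3B: gactttcttcCTCTTTTggcaacatggcgg
EIF3D: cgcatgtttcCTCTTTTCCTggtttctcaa
EIF3F: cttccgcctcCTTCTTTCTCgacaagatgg
EIF3K: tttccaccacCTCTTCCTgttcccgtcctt
EIF3M: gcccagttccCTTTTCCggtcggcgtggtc
EIF4A2: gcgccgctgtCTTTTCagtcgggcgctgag
EIF4B: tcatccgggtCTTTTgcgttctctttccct
The windows of EIF2A (chr3:150546777-150546806), EIF2S3 (chrX:24054946-24054975), EIF2S3B (chr12:10505880-10505909), EIF3F (chr11:7987327-7987356), EIF3K (chr19:38619178-38619207), EIF3M (chr11:32583821-32583850), EIF4A2 (chr3:186783567-186783596) and EIF4B (chr12:53006446-53006475) lie on the plus strand. Those of EIF2D (chr1:206612446-206612475) and EIF3D (chr22:36529147-36529176) lie on the minus strand. The runs were 5 bases in EIF4B and up to 10 in EIF3D and EIF3F, the C included. Starts are those of the annotation and were not measured here.

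Some members share sequence with a copy, so that a count per gene depends on how reads that match both were assigned, and that rule is not stated. The coding sequences of EIF3C and EIF3CL in GENCODE 29, of 2739 and 2742 bases, aligned over 2739 bases with 0 differing bases. EIF5A and EIF5AL1 differed at 5 of 462 coding bases, and EIF2S3 and EIF2S3B at 25 of 1416. The stretches of 60 coding bases that follow show the start of the EIF3C pair and the densest differences of the other 2 pairs, with differing bases in capitals.
EIF3C: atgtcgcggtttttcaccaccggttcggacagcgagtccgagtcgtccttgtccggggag
EIF3CL: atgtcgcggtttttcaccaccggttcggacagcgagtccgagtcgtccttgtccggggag
EIF5A: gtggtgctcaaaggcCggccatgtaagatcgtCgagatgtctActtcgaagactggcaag
EIF5AL1: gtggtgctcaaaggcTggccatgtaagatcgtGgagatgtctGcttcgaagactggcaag
EIF2S3: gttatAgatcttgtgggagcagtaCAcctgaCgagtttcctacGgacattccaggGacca
EIF2S3B: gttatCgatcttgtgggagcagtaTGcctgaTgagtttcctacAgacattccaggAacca
These stretches lie in coding exons at chr16:28711687-28711746 (EIF3C, plus strand), chr16:28403559-28403618 (EIF3CL, minus strand), chr17:7309726-7309785 (EIF5A, plus strand), chr10:79512740-79512799 (EIF5AL1, plus strand), chrX:24057673-24057732 (EIF2S3, plus strand) and chr12:10506204-10506263 (EIF2S3B, plus strand) on GRCh38. The share of 75-base pieces of the longest transcript that was found in no other gene was 50.7% for EIF3C and 2.09% for EIF3CL. It was 82.0% for EIF5A, 89.1% for EIF5AL1, 84.9% for EIF2S3 and 83.5% for EIF2S3B.

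As a whole the initiation factor genes differed little between the libraries. Of the 51 members, 49 passed a filter of 50 or more counts over both libraries and of 1 CPM (a count scaled to library size) or more in either. EIF4E1B, a germline relative of eIF4E, was at 0 in both libraries, and EIF4EBP3, the least abundant 4E-BP gene here, had 24 counts in the SETDB2 library and 23 in the control library. The log2 ratio, SETDB2 over control, had a median of 0.05 over the 49 members, against 0.00 (0.002) over the 14518 genes that passed the filter. Of the 49 ratios, 29 lay above 0 and 20 below, where 50.4% of all genes lay above. The counting interval lay wholly above 0 for 20 members and wholly below 0 for 13, while over all 14518 genes 26.3% and 24.7% did so. Added together, the members had 417586 counts in the SETDB2 library and 403111 in the control library, a log2 ratio of 0.04 (0.04 to 0.05). The robust standard deviation of the ratios was 0.13 for the members. Of the 44 members with 1000 or more counts in sum, 27 lay above 0, against 54.0% of the 8653 genes with such counts, and 19 had an interval above 0, against 33.5%. The robust standard deviation was 0.13 for these members as well, against 0.18 for the 8653 genes.

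None of the 49 members was at least 2-fold different, against 2.68% of all genes that passed the filter and 0.22% of those with 1000 or more counts. A smaller threshold of 1.2-fold, with an interval that leaves out equality, was passed by 2 members in each direction. EIF5A2 and EIF3J were higher in the SETDB2 library, where 10.4% of all genes were called higher. EIF3C and EIF2D were lower, where 13.1% of all genes were called lower. Both counts are below the shares over all genes. Among the genes with 1000 or more counts in sum, to which all called members but EIF5A2 belong, 7.43% were called higher and 7.86% lower, and of the 44 members with such counts 1 was higher and 2 were lower. With 1 library a group these are rules of size and not tests, and the intervals cover counting error only. The spread between cultures of BHT101 is unknown.

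**Figure D1:**
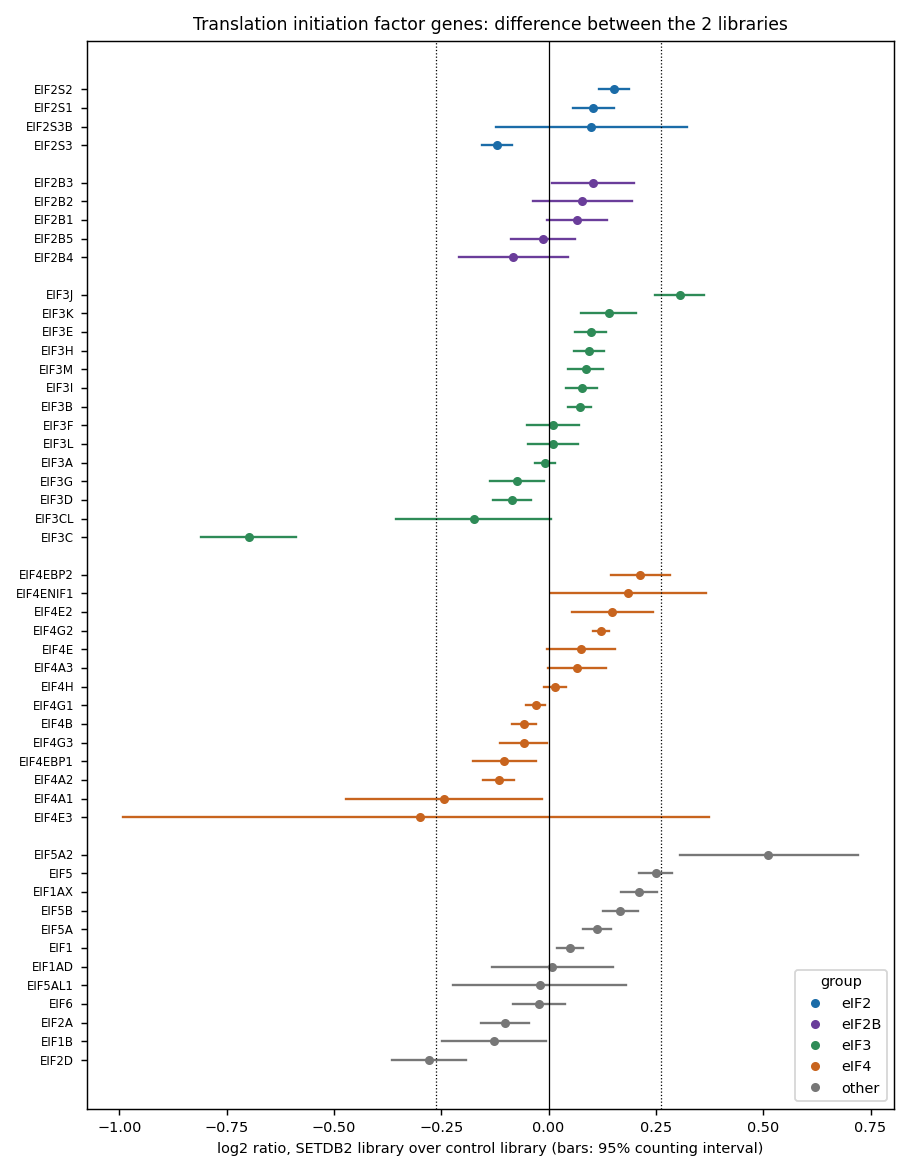
Log2 ratio, SETDB2 over control (horizontal axis), for the 49 members that passed the count filter, by group; bars are 95% counting intervals, the solid line marks equality and dotted lines mark 1.2-fold. EIF3C lies alone on the left at -0.70 and EIF5A2 alone on the right at 0.51.

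**Figure D2:**
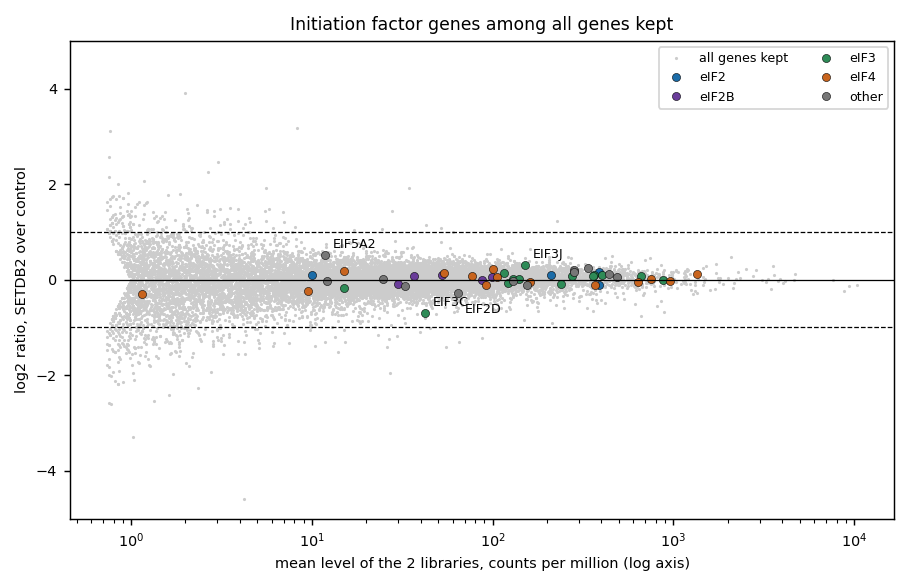
Log2 ratio (vertical axis) against the mean CPM of both libraries (horizontal log axis) for all 14518 genes kept, in grey, and for the members in colour; dashed lines mark 2-fold. No member lies beyond a dashed line.

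The subunits of eIF2 did not share a direction. EIF2S1 encodes the alpha subunit that the stress kinases phosphorylate. It had 7344 counts (38.5 FPKM, a count scaled to gene length and library size) in the SETDB2 library and 6800 counts (35.6 FPKM) in the control library, a log2 ratio of 0.10 (0.06 to 0.15). EIF2S2, the beta subunit, had 13888 counts (154.7 FPKM) and 12438 counts (138.4 FPKM) in the SETDB2 and control libraries, a log2 ratio of 0.15 (0.12 to 0.19). EIF2S3, the gamma subunit that holds GTP and the initiator tRNA, was lower, with 12507 counts (106.6 FPKM) in the SETDB2 library and 13534 counts (115.2 FPKM) in the control library, a log2 ratio of -0.12 (-0.16 to -0.09). Its retrocopy EIF2S3B had 351 counts (4.29 FPKM) in the SETDB2 library and 326 counts (3.98 FPKM) in the control library, a ratio of 0.10 (-0.12 to 0.32), and the sum with EIF2S3 had a ratio of -0.11 (-0.15 to -0.08). The alpha and beta subunits thus lay above 0 and the gamma subunit below it, each by more than counting error and by less than 1.2-fold. The median over the 4 genes was 0.10, and it was 0.03 once the trend of the ratio over GC content, described below, was removed. Of the pieces of EIF2S2, 81.5% were unique, and 17.4% were shared with the pseudogene EIF2S2P4, which had 741 counts in the SETDB2 library and 588 in the control library.

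The 5 eIF2B genes were all measured and all lay close to equality. EIF2B3, the gamma subunit, had 1845 counts (16.0 FPKM) in the SETDB2 library and 1710 counts (14.8 FPKM) in the control library, and its ratio of 0.10 (0.01 to 0.20) was the only one of the 5 whose interval left out 0. EIF2B2, the beta subunit, had 1275 and 1202 counts in the SETDB2 and control libraries (6.93 and 6.53 FPKM), a ratio of 0.08 (-0.04 to 0.19). EIF2B1, the alpha subunit of the regulatory core that senses phosphorylated eIF2, had 3431 and 3264 counts (28.0 and 26.6 FPKM), a ratio of 0.07 (0.00 to 0.14). These ratios were all within 1.2-fold. EIF2B5, the catalytic epsilon subunit, had 2954 counts (12.2 FPKM) in the SETDB2 library and 2968 counts (12.2 FPKM) in the control library, a ratio of -0.01 (-0.09 to 0.06). EIF2B4, the delta subunit, had 986 counts (5.46 FPKM) and 1039 counts (5.75 FPKM), a ratio of -0.08 (-0.21 to 0.05). The median of the group was 0.07. The sum of its counts was 10491 in the SETDB2 library and 10183 in the control library, with a ratio of 0.04 (0.00 to 0.08). The FPKM levels of eIF2B genes lay below those of the 3 main eIF2 genes in both libraries, with a highest value of 28.0 in the SETDB2 library and 26.6 in the control library.

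Of the 14 eIF3 genes 9 lay above 0 and 5 below, with a median log2 ratio of 0.04. EIF3J encodes a loosely bound subunit that sits at the decoding site of the small subunit. The gene lies on the plus strand at chr15:44537057-44563029. It had 5688 counts (52.7 FPKM) in the SETDB2 library and 4582 counts (42.4 FPKM) in the control library. The log2 ratio was 0.31 (0.25 to 0.36), which is 1.24-fold. With the GC trend removed the ratio was 0.21, below the 1.2-fold threshold. Of its exon bases 5.85% lie in exons of SPG11, which runs the other way, and whether counting used strand is not stated.

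EIF3C, a large subunit of the octamer, had the lowest ratio of all 49 members. The gene lies on the plus strand at chr16:28688558-28735730. It had 1098 counts (4.65 FPKM) in the SETDB2 library and 1774 counts (7.51 FPKM) in the control library. The log2 ratio was -0.70 (-0.81 to -0.59), so EIF3C was 1.62-fold lower. EIF3CL had 480 counts (4.59 FPKM) in the SETDB2 library and 539 counts (5.16 FPKM) in the control library, a ratio of -0.17 (-0.35 to 0.01). The copies together had 1578 counts in the SETDB2 library and 2313 in the control library, a ratio of -0.56 (-0.65 to -0.47), so the sum was lower as well. EIF3CL held 30.4% of the summed counts in the SETDB2 library (exact 95% interval 28.2 to 32.8) and 23.3% in the control library (21.6 to 25.1). Since the coding sequences are identical where they align, as printed above, both values are uncertain. The sum does not remove this uncertainty, because reads that match both copies may have been left out of it. The levels were also low for an octamer subunit. Apart from EIF3C, the octamer genes ran from 13.8 FPKM (EIF3F) to 123.7 FPKM (EIF3A) in the SETDB2 library and from 13.6 FPKM (EIF3F) to 123.7 FPKM (EIF3A) in the control library.

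The other octamer genes lay between -0.01 and 0.14. EIF3A, the largest subunit and a scaffold for the rest, had 29688 counts in the SETDB2 library and 29712 in the control library, a ratio of -0.01 (-0.03 to 0.02). EIF3K had 4111 and 3714 counts in the SETDB2 and control libraries (43.5 and 39.2 FPKM), a ratio of 0.14 (0.08 to 0.20). EIF3E, with 12713 and 11819 counts (62.6 and 58.2 FPKM), was at 0.10 (0.06 to 0.13), and EIF3H, with 14023 and 13074 counts (64.5 and 60.1 FPKM), at 0.09 (0.06 to 0.13). These 3 lay above equality by more than counting error, but with the GC trend removed only EIF3K, at 0.18, stood clear of 0, since EIF3E turned to -0.01 and EIF3H was at 0.01. EIF3M, with 9602 and 9003 counts in the SETDB2 and control libraries, had a ratio of 0.09 (0.04 to 0.13), which turned to -0.02 with the GC trend removed. EIF3F (4384 and 4332 counts) and EIF3L (4758 and 4703 counts) both had a ratio of 0.01, with intervals that include 0. The values of EIF3L are less certain, since 42.75% of its pieces were shared with AL022311.1, which overlaps it on the same strand. Among the subunits outside the octamer, EIF3B, which carries the RNA-binding platform for EIF3G and EIF3I, had 23054 and 21823 counts in the SETDB2 and control libraries, a ratio of 0.07 (0.05 to 0.10). EIF3I was at 0.08 (0.04 to 0.11), with 12468 and 11763 counts. EIF3D, a subunit that can bind the cap of some mRNAs, was on the other side, with 7837 counts (56.97 FPKM) in the SETDB2 library and 8277 counts (60.12 FPKM) in the control library, a ratio of -0.09 (-0.13 to -0.04). EIF3G had 4003 and 4191 counts (33.98 and 35.54 FPKM), a ratio of -0.07 (-0.14 to -0.01). EIF3B, EIF3G and EIF3I, which bind each other in the complex, thus did not all lie on the same side of 0, but with the GC trend removed EIF3G turned to 0.04, beside 0.14 for EIF3B and 0.11 for EIF3I.

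FPKM levels of subunits that meet in the same complex were far apart. EIF3I reached 213.9 FPKM in the SETDB2 library and 201.6 FPKM in the control library, and EIF3F 13.8 and 13.6 FPKM. The FPKM divides by the length of all merged exons of a gene, 9431 bases for EIF3F and 1725 for EIF3I. Over the 7 octamer genes other than EIF3C, the highest FPKM was 8.99 times the lowest in the SETDB2 library and 9.11 times in the control library. With counts divided by the longest annotated coding length instead, a choice made after the values were seen, this was 4.89 and 4.61 times. The spread of levels thus differed with the length used, and which length is nearer to the true levels was not tested. The length cancels in the ratio between libraries.

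**Figure D3:**
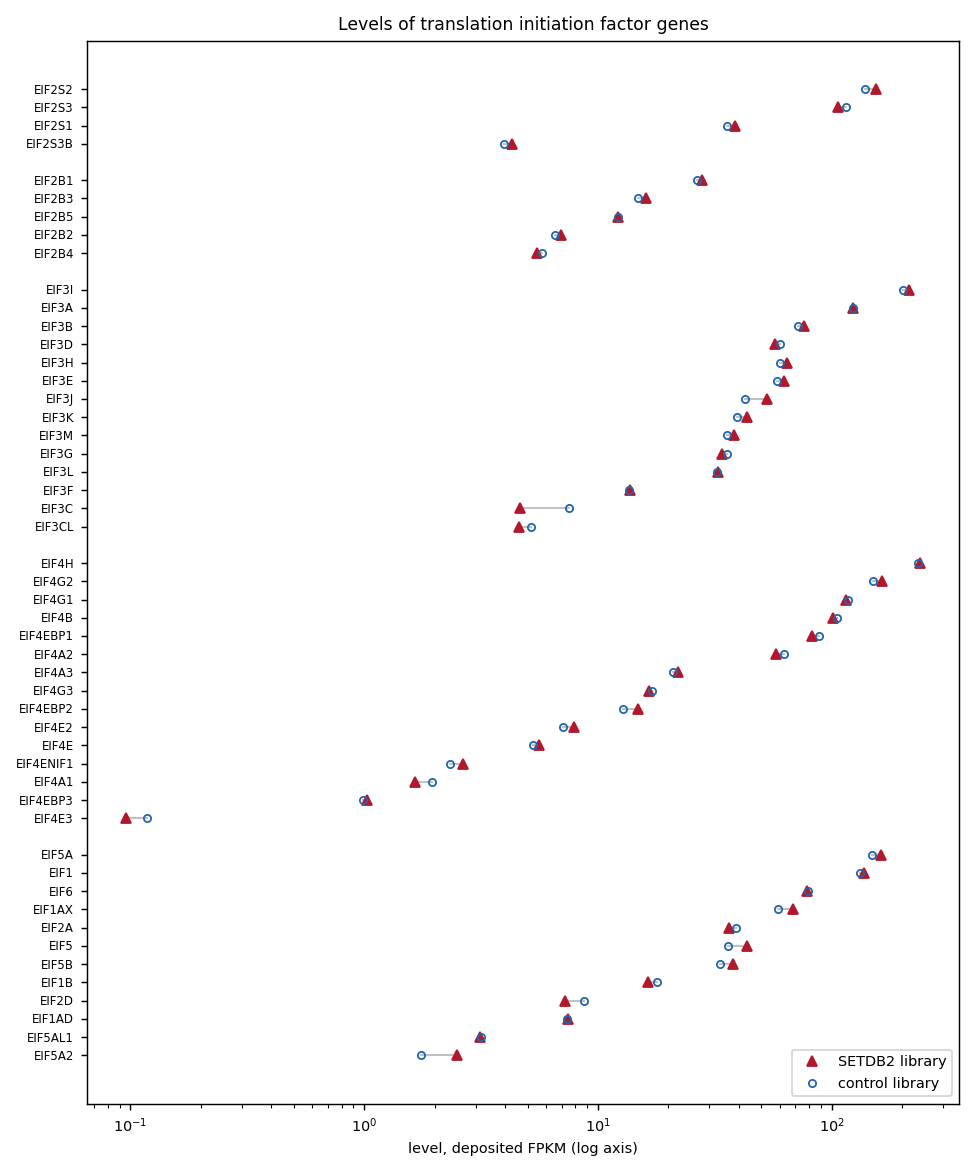
Deposited FPKM (horizontal log axis) of the 50 members with a count, in the SETDB2 library (triangles) and the control library (circles), ordered within each group by the control level. The 2 symbols nearly coincide for most genes and part most for EIF3C and EIF5A2.

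The eIF4 genes had a median log2 ratio of -0.01 over 14 members that passed the filter, with 7 above 0 and 7 below, and the median turned to 0.01 under upper quartile scaling. None passed the 1.2-fold rule. EIF4E, the cap-binding protein, had 2659 counts (5.59 FPKM) in the SETDB2 library and 2511 counts (5.28 FPKM) in the control library, a ratio of 0.08 (0.00 to 0.16). EIF4E2, a cap-binding relative that takes part in silencing of mRNAs, had 1912 counts (7.88 FPKM) and 1717 counts (7.07 FPKM) in the SETDB2 and control libraries, a ratio of 0.15 (0.05 to 0.24). EIF4E3 was scarce, with 35 counts (0.0961 FPKM) in the SETDB2 library and 43 counts (0.118 FPKM) in the control library, and its ratio of -0.30 had the widest interval of the members that passed (-0.99 to 0.37). The share of EIF4E in the counts of the 3 cap-binding genes was 57.7% in the SETDB2 library (56.3 to 59.2) and 58.8% in the control library (57.3 to 60.3), intervals that overlap.

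The scaffold genes lay close to 0. EIF4G1, the main eIF4G, had 32148 counts (115.2 FPKM) in the SETDB2 library and 32669 counts (117.0 FPKM) in the control library, a ratio of -0.03 (-0.05 to -0.01). EIF4G2, a relative without the eIF4E-binding site that is also called DAP5, had 47840 counts (163.5 FPKM) in the SETDB2 library and 43786 counts (149.6 FPKM) in the control library, a ratio of 0.12 (0.10 to 0.14). EIF4G3 had 5362 counts (16.5 FPKM) in the SETDB2 library and 5556 counts (17.1 FPKM) in the control library, a ratio of -0.06 (-0.112 to -0.003). EIF4G2 accordingly held 56.1% of the summed counts of the 3 genes in the SETDB2 library (55.7 to 56.4) and 53.4% in the control library (53.1 to 53.7). Counting intervals of the shares did not overlap, and EIF4G2 itself was 1.09-fold higher. With the GC trend removed EIF4G1 turned to 0.05 and EIF4G2 was at 0.04, so these no longer lay on opposite sides of 0.

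The genes of the 4E-BPs, the mTOR-controlled inhibitors of eIF4E, lay on opposite sides of 0. EIF4EBP2 had 3655 counts (14.9 FPKM) in the SETDB2 library and 3137 counts (12.8 FPKM) in the control library, a ratio of 0.21 (0.14 to 0.28). EIF4EBP1, which ATF4 is known to induce, had 2986 counts (82.3 FPKM) in the SETDB2 library and 3192 counts (87.9 FPKM) in the control library, a ratio of -0.10 (-0.18 to -0.03). EIF4EBP1 held 45.0% of their summed counts in the SETDB2 library (43.8 to 46.2) and 50.4% in the control library (49.2 to 51.7). With the GC trend removed, the ratio of EIF4EBP1 turned to 0.06, and that of EIF4EBP2 was 0.17. Per kilobase of merged exons EIF4EBP1 was the higher of both genes in each library. EIF4ENIF1, which carries eIF4E into the nucleus and to P-bodies, had 545 and 477 counts in the SETDB2 and control libraries (2.65 and 2.32 FPKM), a ratio of 0.19 (0.01 to 0.37).

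EIF4A1, the main helicase of the cap-binding complex, was listed with 297 counts (1.65 FPKM) in the SETDB2 library and 350 counts (1.95 FPKM) in the control library, a ratio of -0.24 (-0.47 to -0.02). None of its 75-base pieces was unique: 87.2% were shared with AC016876.2, which like the read-through gene SENP3-EIF4A1 overlaps it on the same strand, and 48.6% of its exon bases lie in exons of other genes. SENP3-EIF4A1 had 8 counts in the SETDB2 library and 7 in the control library, and AC016876.2 had 0 and 4. Both the level and the ratio of EIF4A1 are therefore uncertain. EIF4A2, the paralog with 94.5% of its pieces unique, had 11971 counts (57.8 FPKM) in the SETDB2 library and 12917 counts (62.3 FPKM) in the control library, a ratio of -0.12 (-0.15 to -0.08). EIF4A3, the helicase of the exon junction complex, had 3684 and 3503 counts in the SETDB2 and control libraries, a ratio of 0.07 (0.00 to 0.13). The helicase cofactors EIF4B, with 21144 and 21905 counts and a ratio of -0.06 (-0.08 to -0.03), and EIF4H, with 25678 and 25301 counts and a ratio of 0.01 (-0.01 to 0.04), lay near 0.

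The remaining 12 members ranged from -0.28 to 0.51. EIF5A2, the paralog of the elongation and termination factor eIF5A, had the highest ratio of all members. The gene lies on the minus strand at chr3:170888415-170908693. It had 473 counts (2.50 FPKM) in the SETDB2 library and 330 counts (1.74 FPKM) in the control library. The log2 ratio was 0.51 (0.31 to 0.72), which is 1.43-fold. All of its pieces were unique, no other gene overlaps its exons, and the ratio was 0.38 with the GC trend removed. EIF5A, far more abundant, had 15450 counts (162.4 FPKM) in the SETDB2 library and 14219 counts (149.3 FPKM) in the control library, a ratio of 0.11 (0.08 to 0.15). EIF5A2 held 2.97% of the counts of both genes in the SETDB2 library (2.71 to 3.25) and 2.27% in the control library (2.03 to 2.52). EIF5AL1 had 408 and 412 counts in the SETDB2 and control libraries (3.14 and 3.17 FPKM), a ratio of -0.02 (-0.22 to 0.18).

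None of the factors of start codon selection and subunit joining passed the 1.2-fold rule. EIF5, the GTPase activator of eIF2, had 12428 counts (43.2 FPKM) in the SETDB2 library and 10409 counts (36.2 FPKM) in the control library, a ratio of 0.25 (0.21 to 0.29), just short of the 1.2-fold threshold at 0.26. EIF1AX, which works with eIF1 in scanning, had 10243 counts (68.5 FPKM) and 8810 counts (58.8 FPKM) in the SETDB2 and control libraries, a ratio of 0.21 (0.17 to 0.25). EIF5B, the GTPase of subunit joining, was at 0.17 (0.13 to 0.21), with 10061 and 8919 counts. With the GC trend removed these were 0.18, 0.08 and 0.07. EIF1, with 16824 and 16179 counts (137.4 and 132.0 FPKM), was at 0.05 (0.02 to 0.08), and its paralog EIF1B, with 1062 and 1155 counts (16.4 and 17.9 FPKM), at -0.13 (-0.25 to -0.01). EIF1AD, named for its similarity to eIF1A, had 841 and 832 counts, a ratio of 0.01.

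EIF2D, which can place tRNA on the ribosome without GTP and takes part in reinitiation and recycling, was lower in the SETDB2 library. The gene lies on the minus strand at chr1:206571292-206612463. It had 1971 counts (7.23 FPKM) in the SETDB2 library and 2380 counts (8.73 FPKM) in the control library. The ratio was -0.28 (-0.37 to -0.19), which is 1.21-fold lower and just past the threshold, and all of its pieces were unique. On the log2(FPKM + 1) scale it was at -0.24, short of the threshold. EIF2A, another initiator tRNA carrier that is no subunit of eIF2, had 5084 and 5429 counts in the SETDB2 and control libraries, a ratio of -0.10 (-0.16 to -0.05). EIF6, which keeps the large ribosomal subunit from joining too early, was at -0.02 (-0.08 to 0.04), with 4337 counts in the SETDB2 library and 4386 in the control library.

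The ratios varied with base composition. The Spearman correlation of the ratio with the GC content of the longest annotated transcript was -0.29 over the 49 members and -0.32 over 14513 genes that passed the filter. With 1000 or more counts in sum it was -0.31 over 44 members and -0.44 over 8651 genes. Genes are not independent replicates and share these 2 libraries, so no p-value is given. EIF5A2 with 34.3% GC and EIF1AX with 35.2% lay at the low end of GC content and above 0, and EIF4EBP1 with 65.5% lay at the high end and below 0. Other members went against the trend, such as EIF4A2 with 38.65% GC at -0.12 and EIF5A with 57.3% at 0.11. Removing the trend of all genes left 30 members above 0 and 19 below and turned the sign of 9, namely EIF2B5, EIF3E, EIF3F, EIF3G, EIF3M, EIF4E, EIF4EBP1, EIF4G1 and EIF6. EIF3C (-0.70) and EIF2D (-0.32) stayed past the 1.2-fold threshold, as did EIF5A2. The trend's part in the differences was not tested, and with 1 library a group the cells and the library preparation cannot be told apart as its source.

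**Figure D4:**
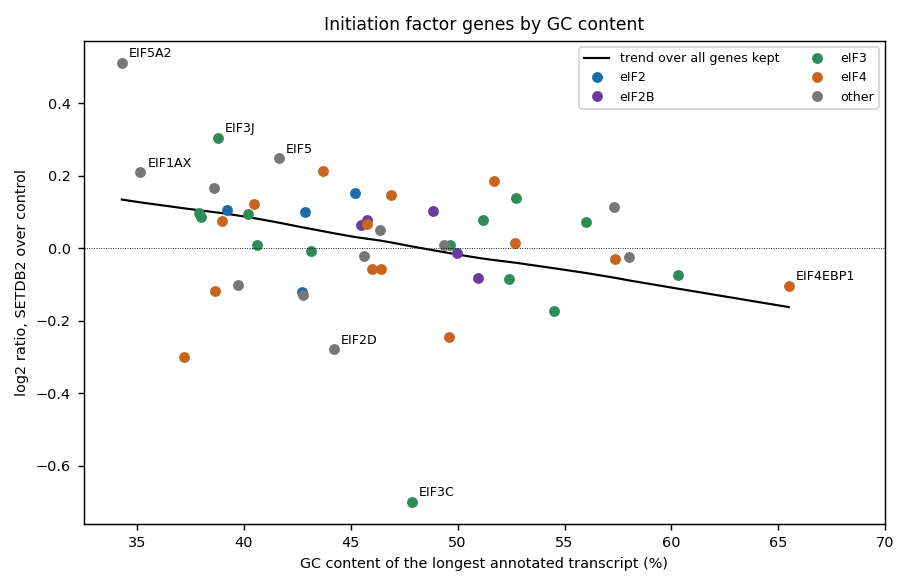
Log2 ratio (vertical axis) against GC content of the longest annotated transcript in percent (horizontal axis) for the 49 members, with the trend over all genes kept as a line. EIF3C, EIF2D and EIF5A2 lie farther from the line than EIF1AX and EIF4EBP1.

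Members with a pyrimidine start, a grouping made after values were seen, lay lower than the others. Of the 10 members printed above, 4 had a ratio above 0 and 6 below, with a median log2 ratio of -0.07 and a range of -0.28 to 0.14. Of the other 31 members with a listed start that passed the filter, 21 lay above 0 and 10 below, with a median of 0.07. Over protein-coding genes the medians were 0.00 (-0.001) for 746 genes with such a start and 0.01 for 9096 without. The 4 members listed here as reported TOP mRNAs were EIF3E, EIF3F, EIF3H and EIF4B. Of these, 3 lay above 0 and 1 below, with a median of 0.05. EIF3F (0.01) and EIF4B (-0.06) are also among the members printed above. EIF3E (0.10) and EIF3H (0.09) had no matched start and could not be scored, so the lists cannot be set against each other. The heptamer CGGAAGT, the core of the site of ETS factors such as GABPA, was searched in the 300 bases of each listed start, on both strands. It was in 11 of the 43 members (25.6%), EIF2B1, EIF2B2 and EIF2B5 among them, against 11.5% of the protein-coding genes in the table and 15.9% of those that passed the filter. Members with it had a median ratio of 0.07 and those without it 0.06.

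Lists of genes that act with or on the initiation factors were set beside them. The GC trend was not removed from the ratios of these lists, so its part in them was not tested. Of 13 genes of eIF2 dephosphorylation and of the response to eIF2 phosphorylation, 4 lay above 0 and 9 below, with a median of -0.17, and 4 were called at least 1.2-fold lower and 0 higher, where 13.1% of all genes were called lower. These 4 were ASNS, asparagine synthetase, at -0.55 (-0.69 to -0.41), DDIT3, which encodes CHOP, at -0.40 (-0.52 to -0.28), the pseudokinase TRIB3 at -0.37 (-0.41 to -0.33) and SESN2 at -0.33 (-0.39 to -0.26). TRIB3 had 8944 counts in the SETDB2 library and 11477 in the control library. PPP1R15A, the inducible subunit of the eIF2 phosphatase, had 5596 counts in the SETDB2 library and 6667 in the control library, a ratio of -0.26 (-0.31 to -0.21), and ATF4 17498 and 18925 counts, a ratio of -0.12 (-0.15 to -0.09). Other outputs in the list that missed the threshold were DDIT4 at -0.23 (-0.29 to -0.16), CHAC1 at -0.17 (-0.29 to -0.05) and ATF5, on the other side, at 0.12. The remaining phosphatase genes lay mostly above 0. PPP1CC was at 0.18 (0.14 to 0.22), PPP1CB at 0.15 (0.10 to 0.20), PPP1R15B at 0.03 (-0.02 to 0.09) and PPP1CA at -0.15 (-0.22 to -0.09). The 4 eIF2 kinases did not share a direction. EIF2AK1, the heme-regulated kinase, was at 0.12 (0.07 to 0.17), EIF2AK3, the kinase of the endoplasmic reticulum, at 0.11 (-0.06 to 0.28), EIF2AK4, the amino acid sensor GCN2, at -0.02 (-0.11 to 0.06) and EIF2AK2, the interferon-induced kinase PKR, at -0.10 (-0.16 to -0.04). Phosphorylation of eIF2 was not measured.

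Of 15 cap and poly(A) partners 8 lay above 0 and 7 below, with a median of 0.02. MKNK1, a kinase of eIF4E, was the only one past 1.2-fold, where 10.4% of all genes were called higher and 13.1% lower. It had 750 counts in the SETDB2 library and 607 in the control library, a ratio of 0.30 (0.14 to 0.46). The related kinase gene MKNK2 was at -0.20 (-0.27 to -0.14). ZNF598, a ubiquitin ligase that senses collided ribosomes, was at -0.24 (-0.30 to -0.18), and ANGEL1, which binds eIF4E, at -0.23 (-0.35 to -0.12). Of 11 mTORC1 and S6 kinase genes 2 lay above 0 and 9 below, with a median of -0.03 and none called at 1.2-fold. DEPTOR, an inhibitor of mTOR, was past that size at -0.28 on 75 counts in the SETDB2 library and 91 in the control library, with an interval that holds 0 (-0.75 to 0.17). RPS6KB2, with 799 and 946 counts in the SETDB2 and control libraries, was at -0.25 (-0.39 to -0.11). MLST8 was at -0.16 (-0.27 to -0.05) and MTOR at 0.00 (-0.05 to 0.05). Of 5 genes of ribosome recycling and reinitiation 4 lay above 0, with a median of 0.16. MCTS1, which pairs with DENR into a dimer related to EIF2D, had 2014 counts in the SETDB2 library and 1615 in the control library, a ratio of 0.31 (0.22 to 0.41), and DENR 7842 and 7006 counts, a ratio of 0.16 (0.11 to 0.20). ABCE1, the recycling ATPase, was at 0.21 (0.16 to 0.26) and HBS1L at 0.12 (0.04 to 0.19). MCTS1 and DENR thus lay above 0 and EIF2D below.

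Of the elongation factor list, 9 genes passed the filter, of which 1 lay above 0 and 8 below, with a median of -0.11. EEF1A2, the tissue-restricted paralog of eEF1A, was the exception, with 5198 counts in the SETDB2 library and 3514 in the control library, a ratio of 0.56 (0.50 to 0.62). EEF1A1, with 336929 and 362864 counts, was at -0.11 (-0.12 to -0.11), and EEF2, with 110231 and 124824 counts, at -0.19 (-0.20 to -0.17). EEFSEC, the selenocysteine elongation factor, was at -0.16 (-0.33 to 0.01). EEF1G was listed at 0 in both libraries. Its overlap and shared sequence with other genes were not examined, and how shared reads were treated is not stated. The 0 therefore cannot be read as absence of its mRNA. The lowest ratio in the list was that of DHPS, which starts the hypusine modification of eIF5A, with 61 and 81 counts and an interval of -0.92 to 0.08. The 4 termination factors had a median of 0.01, and ETF1, the release factor eRF1, was at 0.15 (0.12 to 0.19), while N6AMT1, which methylates it, was at -0.20 (-0.41 to 0.01). The 6 mitochondrial factors had a median of 0.03, with 5 above 0. The 80 ribosomal protein genes that passed the filter had a median of -0.02, with 31 above 0 and 49 below, 2 called at least 1.2-fold higher and 1 lower, against 10.4% and 13.1% of all genes.

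**Figure D5:**
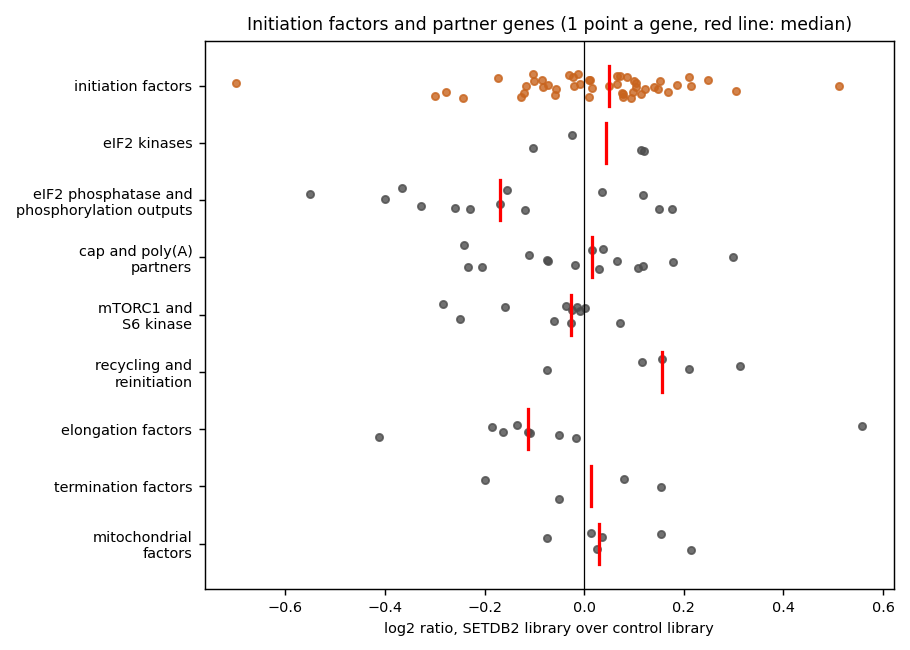
Log2 ratio, SETDB2 over control (horizontal axis), for the initiation factor genes (orange) and for 8 lists of partner genes (grey); each point is a gene and red lines are medians. The list of the eIF2 phosphatase and phosphorylation outputs has the lowest median, at -0.17, and the recycling and reinitiation list the highest, at 0.16.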

How the data were processed

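The authors deposited whole-number read counts per gene and FPKM values for 1 SETDB2 and 1 control library. Per the submitters' processing notes, the tools included TopHat2 2.0.9, Bowtie2 2.0.6, Cuffdiff 2.1.1 and Cufflinks 2.1.1, with no role stated. What counted the reads, whether strand was used and how shared reads were treated is not stated. FPKM as deposited matched the count divided by the gene length and by 1 constant per library, within 0.1%. All 58735 genes had the coordinates of GENCODE 29 (GRCh38), and the deposited lengths equalled the summed merged exons.

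Counts were scaled with TMM (edgeR 4.0.16, R 4.3.3) over the whole table. Log2 ratios used a prior count of 0.5, and intervals are exact Clopper-Pearson intervals of the ratio of 2 counts. The code was run on counts simulated with counting error alone, which cannot show how the intervals fare with spread between libraries. The intervals cover counting error only. DESeq2 1.42.0 gave alternative size factors. No test was run, since there was 1 library per group. Full values were given for members past 1.2-fold, for eIF2 and eIF2B genes, for the highest and lowest 4 of eIF3 and eIF4, and for copies and paralogs. Partner lists name up to 4 genes with the largest ratios. ATF4, ATF5, CHAC1, DDIT4, EEF1A1, EEF1G, MTOR, PPP1CA, PPP1CB, PPP1CC, PPP1R15A and PPP1R15B were named besides after their values were seen. Members and lists were chosen with earlier results of these data known. The GC trend was a lowess fit with a span of 0.3 (statsmodels 0.14.6).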

Additional observations from a re-analysis of the deposited data

How the results depend on the processing

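No paired analysis was possible because each group held 1 library. The count of members called higher was 2 in the analysis as reported and 1 with the GC trend removed, where EIF3J was at 0.21. The count called lower was 2 and became 1 on the log2(FPKM + 1) scale, where EIF2D was at -0.24; that scale gives no interval and understates changes of low genes. The eIF3 median of 0.04 became 0.00 (0.001) with the GC trend removed. The other 77 of 80 alternative values of the counts and medians stayed within 1.5 times the count or within the median counting interval of the members. They covered total-count, DESeq2 and upper quartile scaling, no filter, a summed count of at least 200, a prior count of 2, summed copies and, chosen after seeing the data, leaving out members with under 50% unique pieces, a cut that kept EIF3C at 50.7%. Within that range the eIF4 median, -0.01 as reported, changed sign, to 0.01 with upper quartile scaling or with either other filter and to 0.04 with the GC trend removed, and the eIF2 median of 0.10 became 0.03 in the last. Low counts limit EIF4E3 and EIF4EBP3, with under 100 counts summed over both libraries, and EIF4EBP3 is limited by shared sequence as well.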

Other observations

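Pseudogenes named after initiation factors carried counts outside the members. Of 71 such genes off chromosome Y, 32 had a count in at least 1 library, and together they had 3786 counts in the SETDB2 library and 3888 in the control library. Of the 10 that passed the count filter, 3 lay above 0 and 7 below, with a median log2 ratio of -0.14. EIF4BP6 had 97 counts in the SETDB2 library and 184 in the control library, a log2 ratio of -0.93 (-1.30 to -0.57), EIF3FP3 209 and 289 counts, a ratio of -0.47 (-0.74 to -0.21), and EIF4BP3 167 and 220 counts, a ratio of -0.40 (-0.70 to -0.11). On the other side lay EIF4EP2, with 429 counts in the SETDB2 library and 332 in the control library, a ratio of 0.36 (0.15 to 0.57), and EIF2S2P4, with 741 and 588 counts, a ratio of 0.33 (0.17 to 0.49). EIF4A1P10, a processed copy of EIF4A1 on chromosome X, had 486 and 517 counts, more than EIF4A1 itself in each library. Only part of the pieces of most of these parent genes was shared with the copy. The share was 3.9% for EIF4E with EIF4EP2 and 5.6% for EIF3F with EIF3FP3. It was 15.34% for EIF4B with EIF4BP6 and 17.43% for EIF2S2 with EIF2S2P4. EIF4A1, by contrast, had no unique piece. Reads from shared stretches cannot be told apart in these counts, and their part in the counts of the copies was not tested.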
